A study of Mus musculus with 145 samples.

Results

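The 5 transposon insertion sites with the most sequencing reads were described for each of 145 libraries of mouse mammary tumours, 1 library per tumour with a possible exception named below. The sites were chosen by their read count: positions with reads in all libraries of the treated group, or in over 50% of all libraries, were dropped, each remaining position and strand was given to the 1 tumour that had most of its reads, and the sites of each tumour were ranked by reads. This gave 716 sites out of 186356 kept sites and 198107 deposited sites, 252 of them in 51 resistant tumours and 464 in 94 untreated tumours. Sites of ranks 6 to 100 in the same tumours (12782 sites, 4506 resistant and 8276 untreated) served for comparison. In 141 tumours all 5 ranks were filled. Resistant tumour 42 kept 2 sites, and untreated tumours 24, 58 and 88 kept 3 each. The titles of untreated 58 and 88 differ by an undefined suffix, R2, alone, and both libraries had nearly all of their reads at 1 shared position (98.9% and 99.5%), so they may be a single tumour. They were counted as 2 of the 94, and leaving out 88 changed no call. All mice of both groups carried 4 transgenes: WAP-Cre, a Cre recombinase whose WAP promoter is active in mammary epithelium from late pregnancy, LSL-PB, which gives piggyBac transposase after Cre has acted, LSL-PIK3CA(H1047R), which gives activated PI3K alpha in the same way, and ATP1, the donor of the transposon. The untreated tumours came from 23 mice. The resistant tumours, from 25 other mice, had reached 250 mm3, were then given 30 mg/kg BYL719 (alpelisib, an inhibitor of PI3K alpha) daily, and kept growing over at least 3 consecutive measurements in 3 weeks. The question was which genes carry the insertions that take the most reads, and whether they differ between the groups.

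The piggyBac transposon inserts at the sequence TTAA. Where it lands inside or next to a gene it can end the transcript early or drive transcription from its own promoter, so a strand relative to the gene is recorded for each site. In a tumour that grew from one cell, an insertion present in that cell is carried by the descendant cells, whereas later insertions are carried by fewer. Read number also depends on fragment length, amplification and adaptor ligation, so it ranks sites within a library and does not measure the share of cells. A transposon tends to reinsert on the chromosome it left.

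The sequences at the sites the results turn on are shown first, since the target sequence is the feature by which an insertion by this transposase is recognised. Each deposited context holds 8 bases in the direction of the site's strand, the 4 target bases in capitals and the 4 bases that follow. The 6 sites in Nf1, the 2 sites in Cul1, a close pair of Trps1 sites and the most-read sites in Myc and Met read as follows (mm10).
Nf1, resistant tumour 8, rank 1, chr11 79378016, plus strand: TTAAagat
Nf1, resistant tumour 8, rank 2, chr11 79364071, plus strand: TTAActtg
Nf1, resistant tumour 10, rank 4, chr11 79426297, plus strand: TTAAgagt
Nf1, untreated tumour 25, rank 4, chr11 79384518, minus strand: TTAAtaag
Nf1, untreated tumour 25, rank 5, chr11 79382762, plus strand: TTAAaggc
Nf1, untreated tumour 87, rank 1, chr11 79366009, minus strand: TTAAcaaa
Cul1, resistant tumour 19, rank 1, chr6 47464893, minus strand: TTAAaacc
Cul1, untreated tumour 35, rank 1, chr6 47465645, minus strand: TTAAataa
Trps1, resistant tumour 28, rank 1, chr15 50662447, minus strand: TTAAggtt
Trps1, resistant tumour 49, rank 1, chr15 50662401, minus strand: TTAAtggg
Myc, untreated tumour 1, rank 1, chr15 61984801, plus strand: TTAAtaaa
Met, resistant tumour 20, rank 1, chr6 17481464, plus strand: TTAAgacc
All 12 start with the target sequence, and the bases after it differ from site to site.

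Depth differed between libraries. Reads outside the dropped positions numbered 18 to 1354887 in resistant tumours (median 79703) and 2944 to 935418 in untreated tumours (median 48060.5). The titles take 4 forms, and no form holds both groups, so form and group cannot be told apart. Median reads were 87322.5 (Mouse, 16 tumours) and 79703 (Tgtumor, 35) in the resistant group, and 56005 (TgTum, 61) and 22499 (tgTum, 33) in the untreated group. Of the 716 sites, 520 (72.6%) also had reads in other libraries, against 39.3% of ranks 6 to 100. In the median the tumour that kept a site held 99.8% of the reads at that position, and in 52 sites it held under 90%. Untreated tumours 77 and 79, from different mice, shared 69 of their 100 most-read sites, and untreated tumours 35 and 37 shared 38. In 6 tumours at least 1 of the 5 sites had under 10 reads (16 sites, 7 of them with 1 read).

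The 5 sites took a modest share of the reads in most tumours. Since reads chose the sites, these shares are a description without a test. In resistant tumours the share ran from 2.59% to 72.04% (median 12.5%, n = 51), and in untreated tumours from 0.0239% to 98.9% (median 7.68%, n = 94). The ranges overlap almost fully, and the Mouse form stood highest, with medians of 17.8% (Mouse), 10.2% (Tgtumor), 7.66% (TgTum) and 7.70% (tgTum). Over 50% of the reads lay in the 5 sites in 2 resistant and 6 untreated tumours, and under 5% in 2 and 18. Ranks 6 to 100 took medians of 32.5% and 31.6%. The lowest share of a most-read site was that of the library untreated 88, whose rank 1 site had 2 reads (0.00956%): the position with 20823 of its reads was given to untreated 58, the library with the same title but for the suffix. Its low share is thus set by the rule that gives a position to 1 library. Untreated 37 and 79 also kept few sites, 9 and 40, with 0.386% and 0.960% of their reads in the top 5. Ranks 6 and on took 0.119% and 0.249%, so their other reads lay at positions given to other libraries. No step in reads set off the fifth site from the sixth: their median reads were 1148 and 1029 in resistant tumours against 439 and 387 for the untreated group, and the median ratio within a tumour was 1.05.

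**Figure D1:**
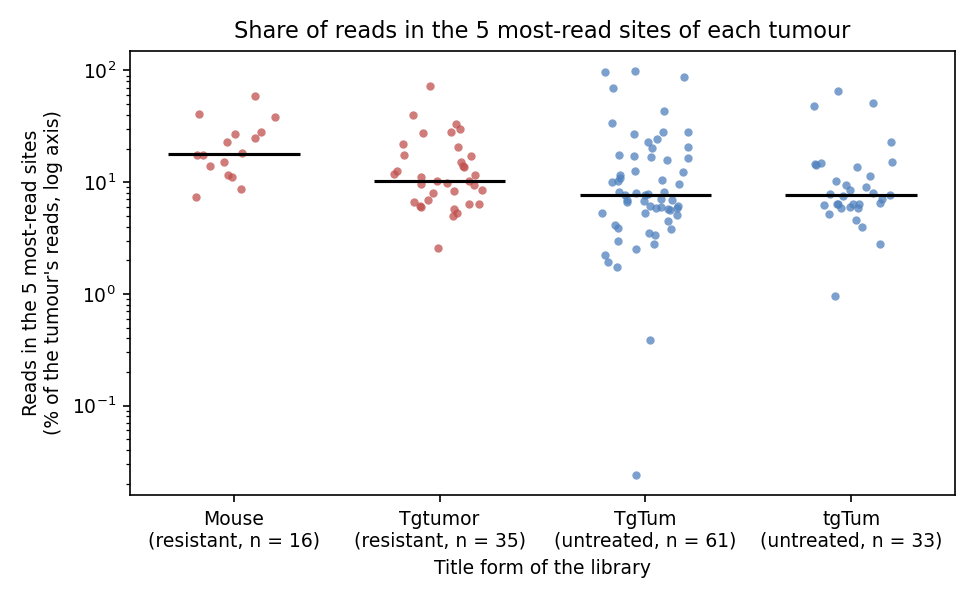
Percent of each tumour's reads in its 5 most-read sites (log axis), by title form of the library, 1 point per tumour with the median as a line. Medians run from 7.66% (TgTum) to 17.8% (Mouse), and single untreated tumours lie below 1% and near 100%. Those below 1% (untreated 37, 79 and 88) had most of their reads at positions given to other libraries.

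Trps1 carried more of these sites than any other gene, and it was in the top 5 more often than its hits at lower ranks would give. It encodes a GATA-type zinc finger repressor of transcription that is expressed in mammary epithelium. In all, 24 of the 716 sites lay in its region (chr15 50654759 to 50892041, mm10, minus strand, Entrez 83925), where 8.49 were expected from the counts at ranks 1 to 100 of the same tumours. They came from 21 tumours (7 resistant and 14 untreated) of 17 mice, and 11 of them were the most-read site of their tumour. The odds ratio for lying in Trps1 at ranks 1 to 5 against ranks 6 to 100 was 3.24 (95% interval 1.99 to 5.08, exact stratified test with tumours as strata, p = 3.54e-06, Benjamini-Hochberg adjusted p = 0.000694). Of 196 genes tested this way, 2 passed the threshold of 0.05 (1.02%), Trps1 and Nf1, and 10 had an unadjusted p under 0.05.

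The Trps1 sites were spread over the gene and the tumours. In resistant tumours they took 0.432% to 13.4% of the reads (10 sites, median 2.25%), and in untreated tumours 0.466% to 11.6% (14 sites, median 2.01%), so the groups overlap. The most-read Trps1 site of the resistant group was in tumour 47 (8157 reads, 13.4%, rank 1, 212.3 kb from the gene start, same strand as the gene). That of the untreated group was in tumour 25 (17026 reads, 10.4%, rank 1, 55.3 kb from the start, opposite strand). The 24 positions were all different, 15.3 to 228.2 kb from the start, and 10 of them (41.7%) lay in the first 50% of the gene, against 40.97% of the 144 Trps1 sites of ranks 6 to 100. The pair in resistant tumours 28 and 49, from 2 mice, lay 46 bases apart near the end of the gene on the same strand. Of the 24 sites, 8 had the strand of the gene and 16 (66.7%) the opposite strand, against 72 and 72 at ranks 6 to 100, a split that was not tested for single genes.

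By rank, Trps1 held 75.9 of every 1000 sites of rank 1, 22.8 at ranks 2 to 5, 19.5 at ranks 6 to 20, 12.2 at ranks 21 to 50 and 8.04 at ranks 51 to 100. The step between ranks 2 to 5 and ranks 6 to 20 was small, and the largest step was that to rank 1. Tested by group, the odds ratio was 3.85 for untreated tumours (14 sites, 4.24 expected, adjusted p = 0.00692, exact test) and 2.63 in resistant tumours (10 sites, 4.25 expected, unadjusted p = 0.00899, adjusted p = 0.279). Among untreated tumours 1 of 100 genes passed (1%), with 5 at an unadjusted p under 0.05. Among resistant tumours 0 of 31 passed (0%), with 2 at an unadjusted p under 0.05, and the difference between the groups was not tested. In the authors' deposited table Trps1 held an insertion in 96.1% of resistant and 95.7% of untreated tumours. Of the 24 sites, 21 also had reads in other libraries, as did all 6 Nf1 sites described next. With all such positions dropped the odds ratio was 2.72 and the call was lost (adjusted p = 0.424, exact test), and with ranks taken from a second deposited number per site, which the header does not define, it was 1.78 (adjusted p = 1).

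**Figure D2:**
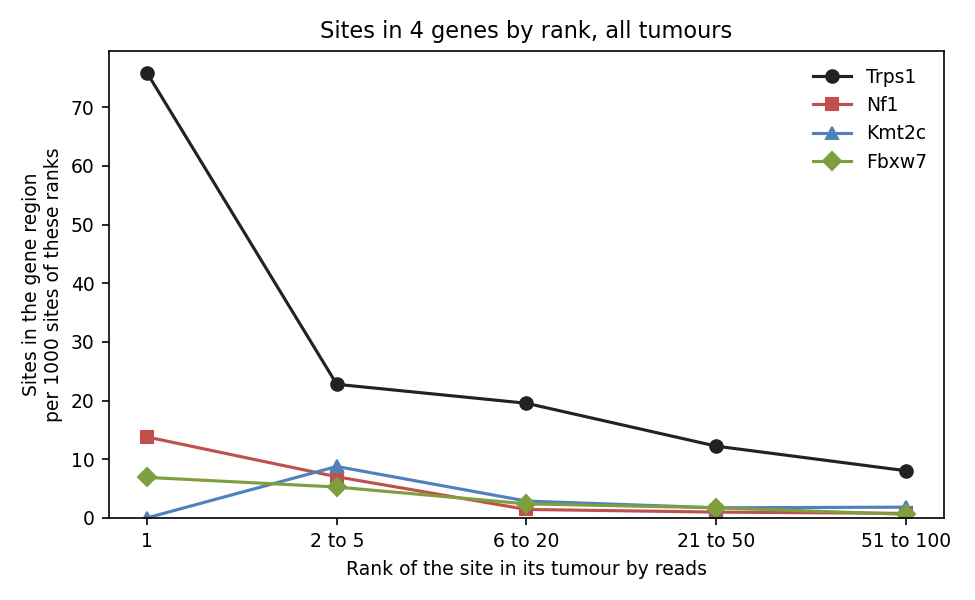
Sites in Trps1, Nf1, Kmt2c and Fbxw7 per 1000 sites of the given ranks, all 145 tumours. Trps1 falls from 75.9 at rank 1 to 8.04 at ranks 51 to 100, and Nf1 from 13.8 to 0.758.

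Nf1 was the other gene to pass. Its product, neurofibromin, inactivates RAS by speeding up GTP hydrolysis. It held 6 of the 716 sites where 0.919 were expected, and 12 sites of ranks 6 to 100 (region chr11 79337892 to 79581609, plus strand, Entrez 18015). The odds ratio was 11.5 (95% interval 3.22 to 38, exact stratified test, p = 0.000123, adjusted p = 0.0120). The test counts each site as independent, whereas the 6 sites came from 4 tumours of 3 mice. Resistant tumour 8 held 2, with 11401 reads (8.29% of its reads, rank 1) and 7348 reads (5.34%, rank 2). Resistant tumour 10, from the same mouse, held 1 with 2251 reads (1.55%, rank 4). Untreated tumour 25 held 2, with 1992 reads (1.22%, rank 4) and 1796 reads (1.10%, rank 5). Untreated tumour 87 held 1 with 2521 reads (5.88%, rank 1).

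Both groups thus had 2 tumours with an Nf1 site among the 5, and the resistant tumours were of a single mouse. The 6 sites lay 24.5 to 86.7 kb from the start of the gene, as listed with their sequences above. Sites of ranks 6 to 100 ran from 1.53 to 184.6 kb, with 4 of 12 past 100 kb. All 3 resistant sites had the strand of the gene, and the untreated sites were 1 on the same and 2 on the opposite strand. At ranks 6 to 100 the resistant group held 11 of the 12 sites, in 5 tumours, and the untreated group 1. By rank, Nf1 held 13.8 of every 1000 sites at rank 1, 7.01 at ranks 2 to 5 and 1.43 at ranks 6 to 20. In resistant tumours alone the odds ratio was 5.85 (3 sites, 0.719 expected, unadjusted p = 0.0288, adjusted p = 0.446, exact test). The call rested on few tumours: without untreated tumour 25 or resistant tumour 8 the odds ratio was 7.24 (exact test, adjusted p = 0.599 and 0.609), and without untreated tumour 87 it was 9.38 (adjusted p = 0.0905). Without resistant tumour 10 it was 19.1 (adjusted p = 0.00680, exact test). It was also lost with 3 sites per tumour (odds ratio 9.16, adjusted p = 0.343), with 10 sites per tumour (6.28, adjusted p = 0.101), without shared positions, which left Nf1 too rare to be tested, and with ranks from the second number (11.5, adjusted p = 0.296, exact test). In the authors' deposited table Nf1 held an insertion in 56.9% of resistant and 31.9% of untreated tumours.

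Kmt2c and Fbxw7 came next by the number of tumours hit, leaving aside a region that overlaps Fbxw7, and did not pass. Kmt2c, a histone H3 lysine methyltransferase that acts at enhancers, held 5 sites in 4 tumours and 25 at ranks 6 to 100 (chr5 25271794 to 25500783, Entrez 231051). Its odds ratio was 3.89 (p = 0.0152, adjusted p = 0.714, exact test). Resistant tumour 48 held 2 of its sites, with 47690 reads (8.01%, rank 2) and 10796 reads (1.81%, rank 3), resistant tumour 5 held 1 with 2032 reads (2.40%), and untreated tumours 15 and 94 held 1 each with 6102 reads (2.68%) and 561 reads (2.43%). Of the 5 sites, 4 had the strand of the gene. None was the most-read site of its tumour. At ranks 6 to 100 Kmt2c was hit in 12 resistant and 4 untreated tumours, a difference that was not tested. In the authors' deposited table it held an insertion in 82.35% of resistant and 48.94% of untreated tumours.

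Fbxw7 and Cul1 encode subunits of the same ubiquitin ligase, SCF, which marks MYC, NOTCH and cyclin E for degradation: Fbxw7 is the subunit that binds the substrate and Cul1 the scaffold. Fbxw7 (chr3 84813577 to 84979198, Entrez 50754) held 4 sites in 4 tumours (odds ratio 4.12, p = 0.0287, adjusted p = 0.714, exact test). They had 4075 reads in resistant tumour 10 (2.81%, rank 1), 12258 in resistant tumour 50 (9.75%, rank 3), 144 in resistant tumour 17 (1.89%, rank 2) and 754 in untreated tumour 90 (1.46%, rank 2). Resistant tumour 10 thus held an Fbxw7 and an Nf1 site among its 5. The site in resistant tumour 17 lay at -1.38 kb from the RefSeq gene start, just inside the region, and 2 of the 4 sites had the strand of the gene. The region named Arfip1 in the authors' table (chr3 84496064 to 85889518) covers the whole of Fbxw7: 4 of its 5 sites are the Fbxw7 sites, and none lies in the RefSeq span of Arfip1 (84496093 to 84582751). Its 5 tumours are therefore not read as hits in Arfip1.

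Cul1 (chr6 47451904 to 47526139, Entrez 26965) held the most-read site of 2 tumours, 1 in each group. In resistant tumour 19 it had 2497 reads (31.2% of a small library) and in untreated tumour 35 it had 36587 reads (11.4%). Both sites had the strand opposite to the gene, and they lay 11.2 and 11.9 kb from its start, 752 bases apart. Only 3 sites of ranks 6 to 100 lay in Cul1 (odds ratio 12.7, p = 0.0226, adjusted p = 0.714, exact test).

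**Figure D3:**
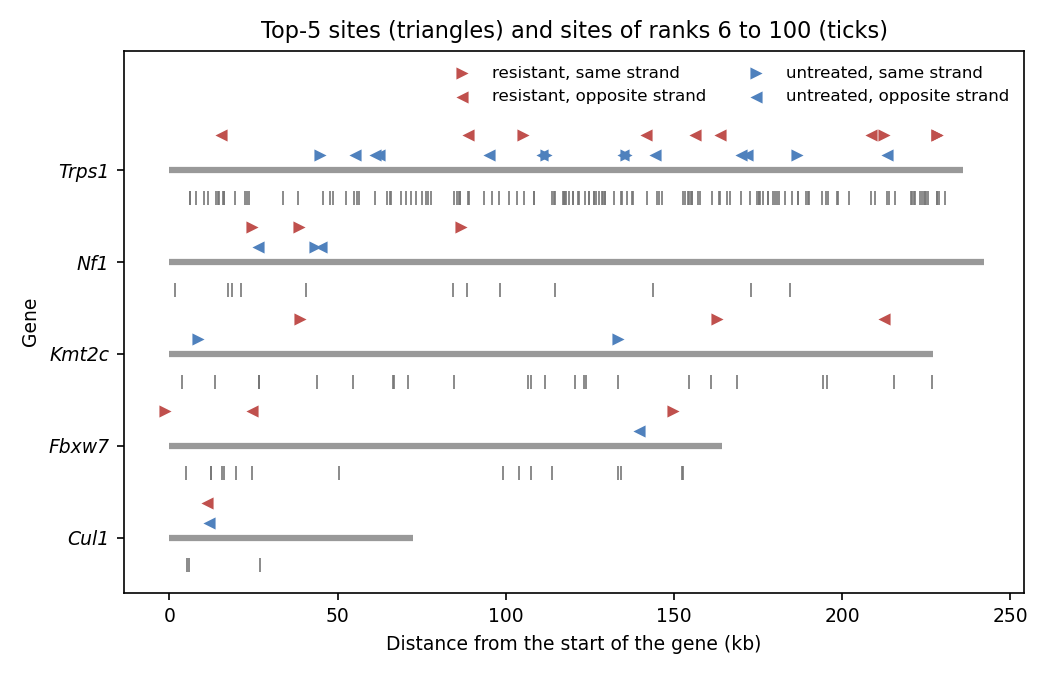
Position of the top-5 sites in 5 genes as distance from the gene start (kb), with resistant tumours in red and untreated tumours in blue, triangles pointing right for sites on the strand of the gene and left for the opposite strand, and ticks for ranks 6 to 100. The 6 Nf1 sites lie between 24.5 and 86.7 kb, the 2 Cul1 sites lie next to each other, and the Trps1 sites run along the gene.

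In all, 284 genes held a top-5 site, 2.29% of 12406 gene regions, and 3211 (25.9%) held a site of ranks 6 to 100. A single tumour accounted for 255 of the 284, 29 genes were hit in at least 2 tumours and 7 in at least 3. Of the 284, 104 had no site of ranks 6 to 100. Regions hit in the top 5 were long, with a median of 132.5 kb against 86.4 kb for genes hit at ranks 6 to 100 and 37.03 kb for all regions, and the 29 genes hit in at least 2 tumours had a median of 407.2 kb. These medians depend on the number of sites drawn (716 and 12782) and of tumours required. They therefore do not show whether the rank classes differ in gene length, which was not tested. At least 1 of these 29 genes was hit in 65 tumours (27 resistant and 38 untreated), while 11 tumours had none of their 5 sites in a gene region. Trps1, Nf1, Kmt2c or Fbxw7 was hit in 29 tumours.

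Of the 25 genes hit in the most tumours, 11 lie on chromosome 10 and 18 have regions over 200 kb. Utrn (utrophin, which links the cytoskeleton to the membrane) and Nkain2 (a partner of the sodium pump) were hit in 3 tumours each, with odds ratios of 1.43 and 1.27 and adjusted p of 1 (exact test). The 3 Utrn sites were all on the opposite strand, as were 28 of 39 at ranks 6 to 100. One of the Nkain2 sites had 1 read. Lin28b (a repressor of let-7 processing), Pde4b (a cAMP phosphodiesterase) and the region of the pseudogene Pisd-ps3 held sites in 2 tumours each. Their odds ratios were 9.50 (exact test, p = 0.0328, adjusted p = 0.714), and Opcml, a cell adhesion gene, had 7.60 (adjusted p = 0.870). Both Pisd-ps3 sites lay before the RefSeq span of the gene, at -27.4 and -16.9 kb from its start. They are therefore not read as hits in Pisd-ps3.

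The other genes hit in 2 tumours had adjusted p of 1 or too few sites for the test. Pard3b, a relative of the polarity protein PAR3, was the most-read site of resistant tumour 44 (19013 reads, 8.41%) and of untreated tumour 18 (6565 reads, 11.5%). Nipbl, which loads cohesin onto DNA, was hit in 1 tumour of each group (1.28% and 0.920% of the reads). Esr1, the oestrogen receptor alpha, held 2 sites in resistant tumour 24 (1.19% and 1.17%) and 1 in untreated tumour 46 (0.990%). Cdh1, which encodes E-cadherin, was hit in untreated tumours 11 (240 reads, 0.767%) and 77 (939 reads, 1.28%), and was the one gene of the 29 with no site of ranks 6 to 100. Heca was hit in untreated tumours 53 (1.10%) and 86 (20.3%), and Map3k5, a stress kinase, in untreated tumours 64 (1.76%) and 94 (4.99%). Ank3 (ankyrin G) and Dennd1b were hit in 2 resistant tumours each. Eya4 and Pcdh15 were hit in 1 tumour of each group, and Ctnna3 (alpha-T-catenin), Lsamp and Mgat4c in 2 untreated tumours each. The other 4 of the 29 genes, Erc2, Foxp1, Slc39a11 and Sox6, are named after their values were seen.

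**Figure D4:**
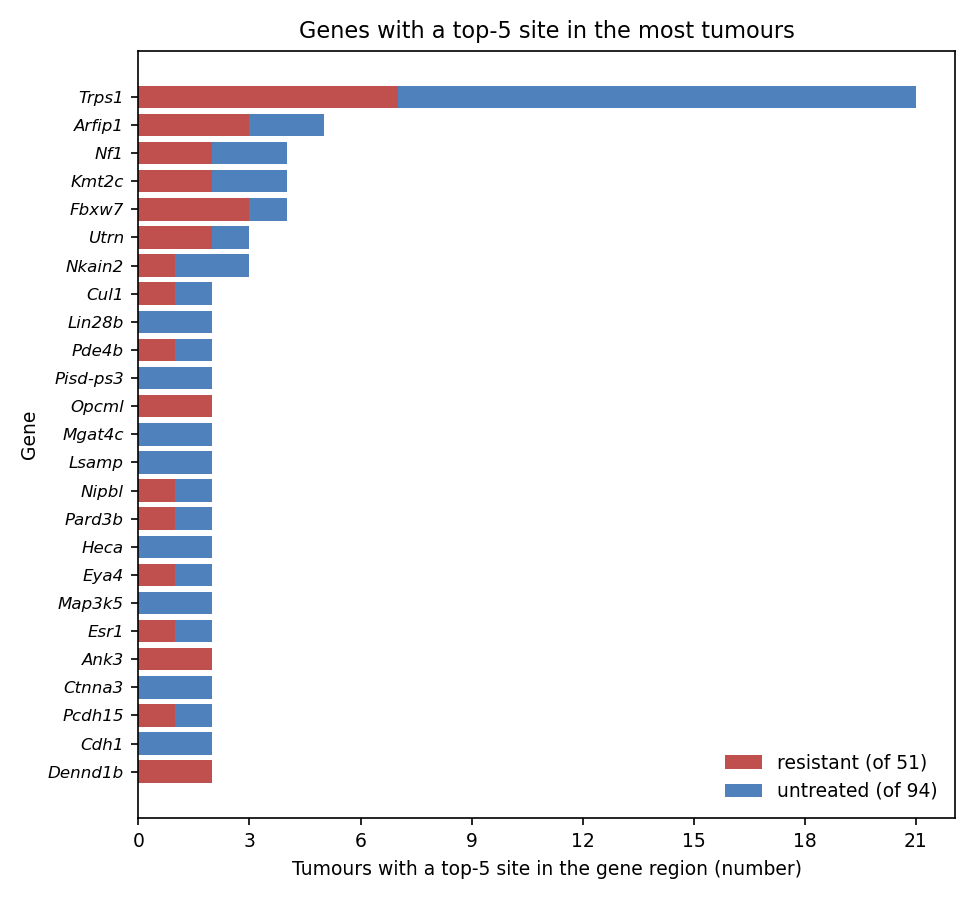
Number of tumours with a top-5 site in each of the 25 genes hit in the most tumours, resistant tumours in red and untreated tumours in blue, stacked. Trps1 was hit in 21 tumours, no other gene in more than 5, and the Arfip1 bar repeats the 4 tumours of Fbxw7. Both Pisd-ps3 sites lay outside the RefSeq span of the gene.

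The groups did not differ detectably in any gene. Of the 7 genes hit in at least 3 tumours, 0 passed (0%, Fisher exact test over tumours, with 0 at an unadjusted p under 0.05). Among the 7 are the Arfip1 region, which repeats the 4 Fbxw7 tumours, and Nkain2, with 1 of its 3 sites at 1 read. When RefSeq spans replaced the regions, 6 genes were tested and 0 passed. For Trps1 the shares were 13.7% (resistant) and 14.9% (untreated, p = 1, exact), and by title form in 12.5% (Mouse), 14.3% (Tgtumor), 13.1% (TgTum) and 18.2% (tgTum). Nf1 was hit in 3.92% and 2.13% (p = 0.613, exact), and so was Kmt2c. Fbxw7 was hit in 5.88% and 1.06% (3 tumours against 1, p = 0.125, adjusted p = 0.804, exact), and Utrn in 3.92% and 1.06% (p = 0.283, adjusted p = 0.804, exact). With so few tumours per gene these tests show no more than that a difference was not detectable. Of the 284 genes, 115 were hit in resistant and 185 in untreated tumours. Only the 29 genes hit in at least 2 tumours could be hit in both groups, and 16 of them were, while 4 were hit in resistant and 9 in untreated tumours alone.

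The listed RAS and MAPK brakes and the activators of the PI3K and RAS pathways had 2 genes each with a top-5 site. Of 14 RAS and MAPK brakes 2 were hit (14.3%), Nf1 and, in 1 untreated tumour, Spred2. Of 30 activators of both pathways 2 were hit (6.67%), the receptor tyrosine kinase Met in 1 resistant tumour and the kinase Sgk1 in 1 untreated tumour. All genes together gave 2.29%, but the listed genes were longer, with medians of 81.8 kb (RAS and MAPK brakes) and 91.4 kb (activators) against 37.03 kb. At ranks 6 to 100, 42.9% of the brakes and 40% of the activators were hit, against 25.9% of all genes.

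Most of the other lists also held long genes: the median region was 90.06 kb for chromatin regulators, 49.3 kb for mammary lineage factors, 91.5 kb for NOTCH, WNT and Hippo genes and 84.6 kb for cohesin genes, but 17.8 kb for cell cycle and p53 genes. All lists were chosen with earlier results of these data known, so shares above 2.29% are not read as enrichment. At ranks 6 to 100 the shares hit were 57.9%, 46.7%, 57.1%, 55.6% and 30% in the same order. Adhesion and polarity genes had 91.7% there, and all genes 25.9%. Among 19 chromatin regulators 3 were hit (15.8%, 3 tumours of each group): Kmt2c, Kdm6a, a histone demethylase, and Arid1a, a subunit of the SWI/SNF remodeller. Among 15 mammary lineage transcription factors, 2 were hit, Trps1 and Esr1 (13.3%, 8 resistant and 15 untreated tumours). Of 21 NOTCH, WNT and Hippo genes 4 were hit (19.05%, 4 resistant and 3 untreated tumours), namely Fbxw7, Rspo3 (a WNT agonist), Vgll4 and Lats1 (members of the Hippo pathway). Of 10 cell cycle and p53 genes, Myc alone was hit, in 1 untreated tumour, and of 9 cohesin genes Nipbl alone. Adhesion and polarity genes were hit in 5 of 12 (41.7%, 3 resistant and 6 untreated tumours), with a median region of 537.4 kb. Of 14 genes from a list of long genes, with a median of 1503 kb, 7 were hit (50%), each time in untreated tumours (7 tumours against 0 resistant, not tested as a list), and all 14 had a site of ranks 6 to 100. At those ranks resistant tumours were hit too, 8 of them in Ptprd and 5 in Dmd. Of all 16 gene regions over 1000 kb with a top-5 site, a count made after the values were seen, 7 were hit in resistant and 13 in untreated tumours. Among the 16 is the Arfip1 region (1393 kb), which was hit in both groups and is far longer than its RefSeq gene.

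The sites with the highest share of the reads in libraries of at least 10000 reads were few and lay in different genes. In untreated tumour 1 the Myc site had 110463 reads (56.2%), on the strand of the gene and 540 bases before its start, at -0.54 kb. Myc is a driver of cell growth that insertional mutagens often activate. In resistant tumour 20 the Met site had 6202 reads (20.2%), on the strand of the gene and 18.1 kb from its start. In untreated tumour 86, Rnf41, a ubiquitin ligase gene, had 56322 reads (24.4%) and Heca 46902 reads (20.3%), both on chromosome 10. An intergenic site on chromosome 4 took 26.1% in untreated tumour 14 (3149 reads), and 1 on chromosome 1 took 16.4% in resistant tumour 45 (20378 reads).

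The other 4 of these sites were less cleanly assigned to 1 tumour. In untreated tumour 58 an intergenic site on chromosome 11 took 98.9% (28181 reads), but 39 libraries had reads there and the tumour held 57.2% of them. Untreated 88, the library of the same title with the suffix R2, held 42.3%, and both together 99.5%. In resistant tumour 34 Kalrn took 19.9% (15089 reads) and Sox6 17.03% (12936 reads), with reads in 43 and 47 libraries and 46.6% and 45.3% of them in the tumour. In resistant tumour 50 Cradd took 19.7% (24767 reads), with reads in 29 libraries and 77.4% of them in the tumour. The Sox6 and Cradd sites lay 35.6 and 30.5 kb from positions in the same genes that were dropped because every resistant library had reads there. Whether these reads came from the tumours named was not tested.

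The most-read sites did not differ detectably from ranks 6 to 100 in how many lay in gene regions, on chromosome 10 or on the strand of the gene. Per mouse, 50.5% of the top 5 lay in gene regions against 47.1% of ranks 6 to 100, a difference of 3.33 percentage points ± 17.5 (SD, n = 48 mice, higher in 28 and lower in 19, sign-flip permutation test, p = 0.193). In site counts these were 345 of 716 (48.2%) and 5991 of 12782 (46.9%). Chromosome 10 held 176 of the 716 sites (24.6%) and 23.9% of ranks 6 to 100, and per mouse the difference was 1.05 points ± 15.01 (n = 48, p = 0.632, permutation). Chromosome 15, which holds Trps1 and Myc, had the next most, with 62 sites (8.66%) against 5.23%. Of sites in genes of known strand, 160 of 334 (47.9%) had the strand of the gene against 50.6%, a difference per mouse of -1.32 points ± 25.7 (n = 48, p = 0.719, permutation). With chromosome 10 left out before ranking, the difference in gene regions was 5.37 points (p = 0.0357, permutation), and with ranks from the second number that on chromosome 10 was 5.11 points (p = 0.0148, permutation).

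More of the most-read sites lay at TTAA over all mice, and the groups differed in this, but neither call held in tumours with at least 100 kept sites. Of the 716 sites, 692 (96.6%) did, against 95.5% of ranks 6 to 100. In resistant tumours 250 of 252 did (99.2% against 95.03%), whereas in untreated tumours 442 of 464 did (95.3%), slightly below the 95.8% of ranks 6 to 100. Per mouse the means were 97.5% and 93.8%, a difference of 3.69 points ± 8.37 (SD, n = 48 mice, higher in 40 and lower in 6, permutation test, p = 0.00143). Most mice had all of their few top-5 sites at TTAA, so any site outside TTAA at the other ranks put them higher. The count of mice is therefore no measure of the size of the difference. The test also takes differences to be symmetric around 0, which such a ceiling can break. By group it was 6.55 points in resistant and 0.574 points in untreated mice (permutation of labels over mice, p = 0.0062, adjusted p = 0.0248 over 4 shares). Among tumours with at least 100 kept sites the difference over all mice was 1.07 points and the call was lost (p = 0.270, permutation). The difference between the groups was 3.05 points there, and its call was lost too (p = 0.107, permutation). In tumours with fewer than 100 kept sites, ranks 6 and on held TTAA in 36.4% to 80.7% (5 resistant) and 25% to 81.5% (6 untreated), against medians of 97.9% in the other tumours of each group. Of the 24 sites outside TTAA, 22 were in untreated tumours, 4 of them in tumour 41 and 3 in tumour 37. Those in tumour 37 had 1 to 2 reads, and adjacent bases were counted as separate sites in untreated tumours 2, 24 and 41. With positions within 10 bases counted once, the difference over all mice was 2.90 points (p = 0.00076, permutation). The base after the target was A in 39.9%, G in 29.9%, T in 20.1% and C in 10.1% of the 692 sites, and in 42.4%, 27.2%, 20.6% and 9.77% of ranks 6 to 100, in the same order.

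**Figure D5:**
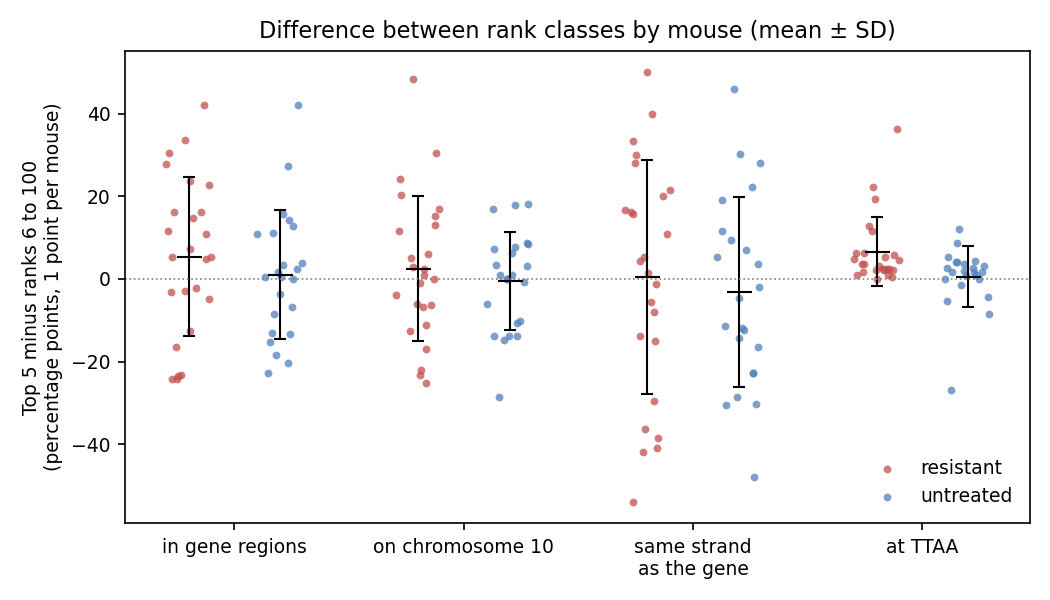
Difference between the top 5 and ranks 6 to 100 in the percent of sites in gene regions, on chromosome 10, on the strand of the gene and at TTAA, 1 point per mouse, with mean and SD by group (25 resistant and 23 untreated mice). The first 3 shares scatter around 0 in both groups, and at TTAA 24 of 25 resistant mice lie above 0. Most mice had all of their top-5 sites at TTAA, so few could lie below 0 there.

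Between the groups, the shares of the top 5 did not differ detectably. Sites in gene regions made up 54.1% ± 17.9 per mouse in the resistant group (SD, n = 25) and 46.2% ± 15.3 in the untreated group (n = 23), a difference of 7.91 points (permutation of labels over mice, p = 0.107), which was 10.2 points with chromosome 10 left out (p = 0.0392). Chromosome 10 held 24.4% ± 20.1 and 22.4% ± 12.6 (p = 0.693, permutation). The strand of the gene was carried by 51.9% ± 26.99 and 45.7% ± 23.1 (p = 0.401, permutation). Of the sites of rank 1, 32 of 51 (62.7%) lay in gene regions among resistant tumours, and 44 of 94 (46.8%) did among untreated tumours, a difference that was not tested.

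Few sites of either rank class lay at promoters. The share of the genome that the promoter windows cover was not computed, so the counts do not show whether promoters were hit less often than other sequence. Of the 716 sites, 3 (0.419%) lay within the window from 250 bases before to 50 after the start of a RefSeq transcript (GRCm38.p6, the same build as mm10), and 73 of the 12782 sites of ranks 6 to 100 did. The letters TTAA, which read the same on both strands, occur in 17210 of 32851 such windows (52.4%). The 60 bases around each of the 3 sites, written on the plus strand with the target in capitals, show where the transposon entered.
Ntan1, untreated tumour 45, chr16:13819032-13819091: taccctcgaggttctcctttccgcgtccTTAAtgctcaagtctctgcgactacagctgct
Spatc1l and 4930483K19Rik, untreated tumour 39, chr10:76562199-76562258: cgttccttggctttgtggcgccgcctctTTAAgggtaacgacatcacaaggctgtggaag
Dctd, resistant tumour 15, chr8:48109788-48109847: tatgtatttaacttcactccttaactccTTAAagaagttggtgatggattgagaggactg
The sites in Ntan1, Spatc1l and Dctd lay inside the RefSeq span of these genes, ahead of a start that is not the first. The Ntan1 site, at -192 bases from a start of a gene for an N-terminal asparagine amidase, was the most-read site of untreated tumour 45 with 43002 reads (8.03%). The site at the start of 4930483K19Rik, on the minus strand, and at -46 bases from a start of Spatc1l, on the plus strand, had 114 reads (0.353%, rank 4), and that at -143 and -198 bases from 2 later starts of Dctd, which encodes a deaminase of deoxycytidylate, had 1055 reads (1.17%, rank 5).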

How the data were processed

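Insertion sites were mapped in genomic DNA by splinkerette PCR on the 5' transposon arm, per the labels' protocols, and 4 library pools were sequenced. Per the submitters' processing notes the genome build was mm10. The sources used here do not state the aligner or the site caller. The deposited table gives read counts per site and library as whole numbers, with no scaling. The other two whole numbers per library (called the second and the third) are not defined in the file headers and were used only in alternatives. Another 435 columns of values per library were not used. The authors' deposited table of gene regions gives the percent of tumours with an insertion and a signed score per gene, per the file headers. The score was not used.

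Gene regions were those with an Entrez identifier (12406, of which 12384 matched RefSeq). They reach past the RefSeq span, mostly at the gene start. Exons and introns were not assigned, for want of a gene model. Strands came from the RefSeq promoter table (9755) or were inferred from the extended end. Same-strand shares then lay within 25 percentage points of the authors' in 99.4% of 1740 genes. Tumour counts per gene assume that tumours are separate, whereas the titles name 48 mice (labels state 53). The rank test of genes treats the sites of 1 tumour as independent. Several tumours of 1 mouse were taken up only in the alternatives, and mice as strata still leave the sites of a mouse counted as independent. Reads carried no molecular identifiers and are not independent, so intervals cover counting of sites only.

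Genes were tested by an exact conditional test of stratified tables (rank class by gene, tumours as strata, genes with a site of ranks 1 to 100 in at least 5 tumours). Tumours hit were compared between groups by Fisher's exact test (genes hit in at least 3 tumours). P-values were adjusted by Benjamini-Hochberg, with a threshold of 0.05. Shares were compared over mice with 100000 two-sided permutations. The named genes were the 25 hit in the most tumours (ties by the rank p, then by symbol), genes that passed, listed genes hit in at least 2 tumours, and the sites of highest read share. Members and lists were chosen with earlier results of these data known. One of the gene lists is not reported here. The alternatives were 3 or 10 sites per tumour, other handling of shared, near or low-depth positions and libraries, other ranking numbers, regions and strata. Scripts were tested on simulated data, with Python 3.11.15, NumPy 2.4.6, SciPy 1.17.1 and pandas 2.3.3.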

Additional observations from a re-analysis of the deposited data

Results flagged for a closer look

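The difference between the top 5 and ranks 6 to 100 in the percent of sites at TTAA was larger in resistant mice (6.55 points ± 8.35, SD, n = 25) than in untreated mice (0.574 ± 7.34, n = 23), by 5.98 points (permutation of labels over mice, p = 0.0062, adjusted p = 0.0248 over the 4 shares compared in this way, a comparison added after the data were seen). Among tumours with at least 100 kept sites it was 3.05 points (2.60 ± 5.37, n = 23, and -0.452 ± 6.97, n = 23, permutation, p = 0.107).

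At 3 of the positions left out of the ranking, all 51 resistant libraries and 0 of 94 untreated libraries had reads. The position 115706530 of chromosome 7, in Sox6, took 16.3% of all reads of the resistant group. Position 67017939 of chromosome 11, outside gene regions, took 13.9%, and position 95288284 of chromosome 10, in Cradd, took 11.9%. Together they held 42.2% of those reads.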

How the results depend on the processing

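Genes passing the rank test numbered 2 of 196 in all tumours. They numbered 1 with 3 sites per tumour, with 10 sites per tumour, and with genes hit in at least 10 tumours, in each case Trps1. They numbered 0 without shared positions and 0 with ranks from the second number (5 genes at an unadjusted p under 0.05 in each, exact test). In untreated tumours these 2 settings also gave 0 for 1 (6 and 2 at an unadjusted p under 0.05), and in resistant tumours the third number gave 1 for 0. Leaving out in turn each tumour with a top-5 site in Trps1 or Nf1 gave 1 to 2 genes: Trps1 passed each time, and Nf1 was lost without untreated tumours 25 or 87 or resistant tumour 8. No gene passed between the groups under any of the 18 alternatives run. Most genes in these tests were hit in too few tumours for a difference to be detectable. The repeated result therefore does not show that the groups are alike.

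The TTAA difference fell to 1.07 points in libraries of at least 100 kept sites. With chromosome 10 left out, gene regions differed by 5.37 points between rank classes and 10.25 points between groups, both past the threshold, and orientation by 2.23. The second number gave 5.11 points on chromosome 10 between rank classes, past the threshold, -0.576 in gene regions, and -8.64 in orientation between groups. Signs also turned, with no test passed, for orientation between rank classes with 3 sites (1.24), for chromosome 10 between groups with 10 sites (-1.46) and without shared positions (-5.40, with orientation at -13.8), and with the third number (gene regions between groups -0.336, orientation between groups -0.841, chromosome 10 between rank classes -2.73). The group difference in tumours hit, -1.17 points for Trps1, was 2.36 without shared positions, 6.45 with the second and 11.5 with the third number and 0.793 at TTAA alone. That of Utrn was -3.36 with the third number, and that of Nkain2 was 0.730 with the Tgtumor form alone. The alternatives on the third number and on gene regions were added after the data were seen. The causes of these changes were not tested.

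No paired analysis was possible because no mouse gave tumours to both groups and the labels carry no replicate number shared between them.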
